A study of Mus musculus with 2 samples.

Results

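Fibroblasts carrying Gdf10, Hsd11b1 and Lamc3 transcripts were described in the aortic root and ascending aorta of Marfan syndrome mice given GLPG0187 or vehicle. A cell was taken when its values of Gdf10, Hsd11b1 and Lamc3 summed to at least 4 and this sum was larger than both competing sums. The competing sums were Clec3b, Pi16, Dpep1 and Scara5, and Prss35, Tbx20, Wif1 and Meox1. Cells with Myh11 at 10 or above, the 3 C1q genes at 5 or above, Pecam1 and Cdh5 at 2 or above, or Hp and Lcn2 at 10 or above were left out. The rule found 1035 of 7358 cells, 499 of 4397 in the GLPG0187 library and 536 of 2961 in the vehicle library. The 3 genes, the competing genes and the genes used to leave cells out chose the cells, so their levels are descriptions only. So is every contrast with cells that failed the rule.

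All mice of both groups were Fbn1C1041G/+, heterozygous for a cysteine-to-glycine change in fibrillin-1, and no group without this allele was analysed here. GLPG0187 is a small molecule that inhibits integrins containing the alpha-v chain. Daily dosing ran from 6 to 16 weeks of age, and tissue was taken at 16 weeks from treated mice and from controls that received vehicle. Each group is 1 library made from pooled aortas of male and female mice in equal numbers, and no source used here gives how many mice entered a pool. Drug, animals, dissection and library therefore cannot be told apart, no difference between the libraries was tested, and "higher" and "lower" are used by size alone. Values under GLPG0187 and under vehicle are those of the 2 libraries.

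Fibroblasts of the outer aortic wall make and remodel the collagen, proteoglycan and basement membrane around vessels and nerves, and they respond to injury and to cytokines. Gdf10 is a secreted ligand of the TGF-beta superfamily, also called BMP-3B. Hsd11b1 encodes the enzyme that regenerates active glucocorticoid from its inactive form inside cells, and Lamc3 encodes the gamma-3 chain of laminin, a basement membrane protein. Among the other genes that named these cells, Adamtsl2 is a secreted glycoprotein that binds fibrillin-1, and Gfra2 is the co-receptor of the neuronal survival factor neurturin. Il6 is an inflammatory cytokine, Ptgs2 is the inducible enzyme of prostaglandin synthesis, and Adamts4 is a protease that cleaves aggrecan and versican. On GRCm38 the genes of the rule are protein-coding genes at chr14:33923587-33937983 (Gdf10, plus strand), chr1:193221634-193264075 (Hsd11b1, minus strand) and chr2:31887291-31946539 (Lamc3, plus strand).

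Values were whole numbers on a depth-corrected scale and not UMI counts, with a median total per cell of 14942 under GLPG0187 and 14806 under vehicle. The members had a median of 3497 and 3619 genes above 0. The libraries had 5 cell barcodes in common, none of them among the members. Intervals of a share are exact 95% Clopper-Pearson intervals. Those of a difference between shares are approximate and join the limits of both shares as the root of their summed squares. All cover counting error only. The summed level of 7 macrophage markers in the members was 1.43 under GLPG0187 and 0.651 under vehicle, against 362 and 358 in C1q cells, and 0 of the 7 was above 0 in 25% of the members. The T cell genes Cd3e and Cd3d and the adipocyte genes Adipoq and Plin1 were at 0 in the members of both libraries.

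Fibroblast genes were present in most members. All 8 general fibroblast markers were above 0 in at least 25% of the members of both libraries, with a summed mean of 422 and 406 per cell in the GLPG0187 and vehicle libraries. The same sum was higher in the other stromal cells, at 578 and 607 in Clec3b/Pi16 cells and 556 and 532 in Prss35/Tbx20 cells. Pdgfra, the fibroblast receptor for platelet-derived growth factor, was above 0 in 88.6% (85.5 to 91.2) of members under GLPG0187 and 83.6% (80.2 to 86.6) under vehicle, against 9.58% and 9.86% of Myh11 cells. The mean of Dcn, the small proteoglycan decorin, was 178 and 165. Smooth muscle markers were also present, with a summed mean of 33.3 and 45.8 and a median cell at 15 and 14, against 648 and 607 in cells with Myh11 at 10 or above. The sum of 5 pericyte markers was 10.5 and 9.90 in members, 5.95 and 5.46 in Clec3b/Pi16 cells, 5.96 and 5.59 in Prss35/Tbx20 cells and 6.797 and 6.615 in Myh11 cells.

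The genes of the rule overlapped with the Clec3b/Pi16 fibroblasts. Gdf10 was above 0 in 91.2% and 86.9% of members of the GLPG0187 and vehicle libraries, in 63.2% and 61.7% of Clec3b/Pi16 cells and in 8.39% and 4.94% of C1q cells. Its mean was 15.4 and 13.3 in members and 5.24 and 4.52 in Clec3b/Pi16 cells. Hsd11b1 was above 0 in 81.4% and 75.2% of members, with means of 9.46 and 9.28, and in 58.5% and 56.0% of Clec3b/Pi16 cells. The neighbouring fibroblasts thus carried both genes at lower levels, while Prss35/Tbx20 cells carried Hsd11b1 in only 9.65% and 11.3% of cells. Lamc3 was above 0 in 91.6% and 90.9% of members, with means of 6.87 and 7.17. Against Myh11 cells it was less restricted than the other genes of the rule, since 41.0% and 43.0% of them also had a value above 0. Against Clec3b/Pi16 cells it was the most restricted of the 3, with 35.4% and 42.3% of them above 0. Few members lay near the threshold, since the median sum of the 3 genes in members was 29 and 26. In cells just inside it, with a sum of 4 or 5, mean Dcn was 94.7 (14 cells) and 114 (25 cells). In cells just outside, with a sum of 2 or 3 and otherwise meeting the rule, it was 68.7 (30 cells) and 111 (22 cells). The cells just inside were unlike most members, with mean Pdgfra at 1.07 and 1.20 against 5.94 and 5.55 over all members. Their mean Acta2, smooth muscle actin, was 42.2 and 48.4.

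Of the markers that the rule did not use, Adamtsl2 was above 0 in 57.1% of members of the GLPG0187 library and 55.8% of those of the vehicle library. Clec3b/Pi16 cells followed at 41.1% and 45.9%, Prss35/Tbx20 cells at 34.2% and 39.7%, and Myh11 cells stood at 3.98% and 4.08%. Gfra2 was above 0 in 53.7% and 53.0% of members, in 23.1% and 26.0% of Clec3b/Pi16 cells and in 3.11% and 5.92% of Myh11 cells. Myh11 cells had more genes above 0 per cell than the members, with medians of 4044.5 and 4172. Mean Adamtsl2 was 2.54 and 2.88 and mean Gfra2 1.58 and 1.43, so both genes lay within 1.5-fold between the libraries.

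**Figure D1:**
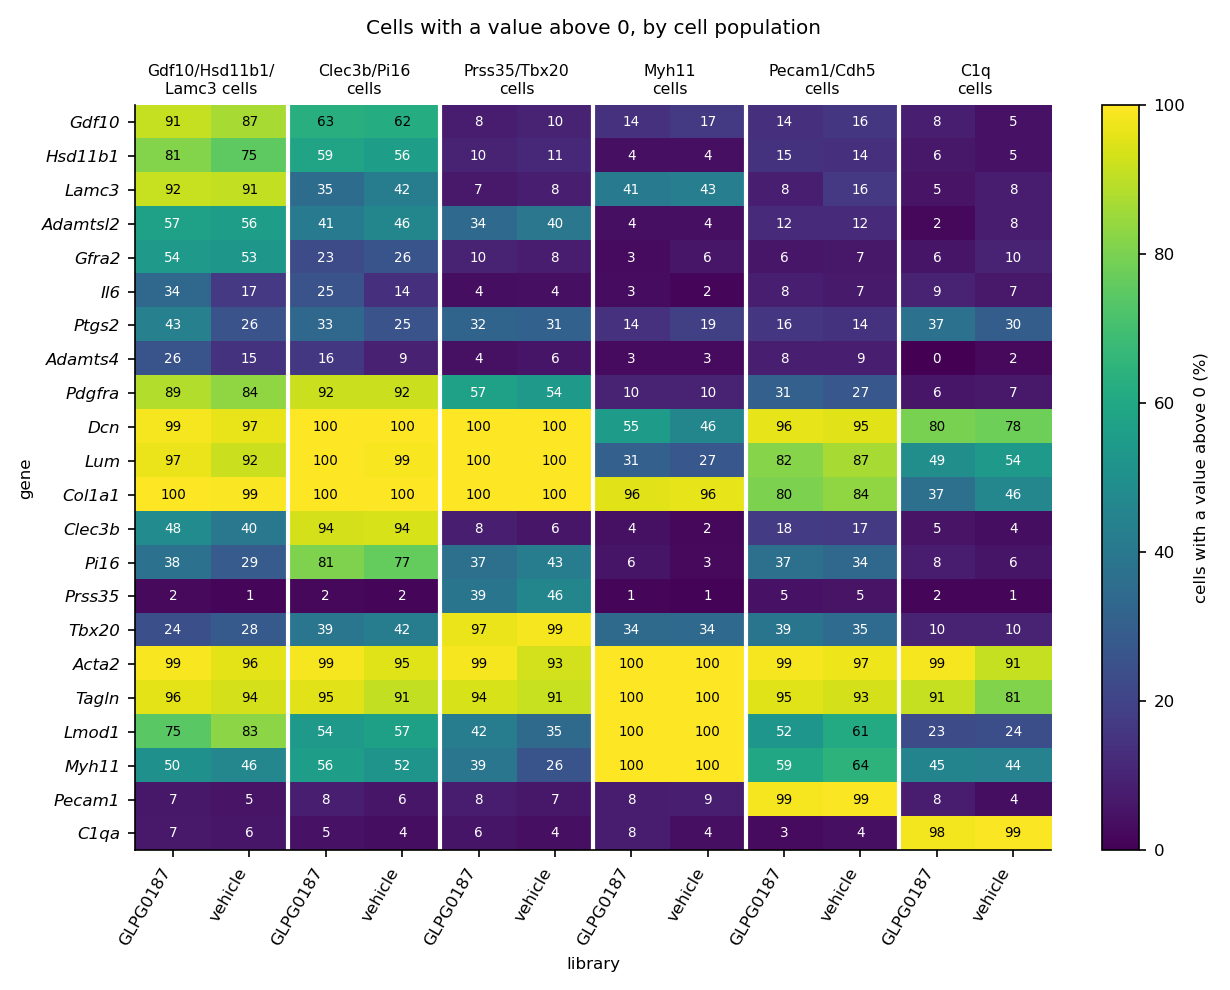
Percentage of cells with a value above 0 for 22 genes (rows) in 6 cell populations, with the GLPG0187 and vehicle libraries side by side (columns, printed percentages and colour scale). Gdf10, Hsd11b1 and Lamc3 are above 0 in 75.2% or more of the Gdf10/Hsd11b1/Lamc3 cells of either library, and Il6, Ptgs2 and Adamts4 are the genes of the label that differ most between its 2 columns.

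The members were of more than 1 kind. In the GLPG0187 library 380 members (76.2%, 72.2 to 79.8) and in the vehicle library 365 (68.1%, 64.0 to 72.0) had both Gdf10 and Hsd11b1 above 0. These cells had the fibroblast profile, with mean Pdgfra at 6.87 and 7.03, Dcn at 195 and 191 and smooth muscle actin Acta2 at 9.91 and 9.22. The flavin monooxygenase Fmo2 was at 32.7 and 33.0 in them.

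Members with Gdf10 but no Hsd11b1 numbered 75 and 101 and carried more contractile transcript. Their mean Pdgfra was 2.84 and 1.82, their Acta2 26.7 and 34.2, and their Tagln, an actin-binding protein of smooth muscle, 36.8 and 53.3. Comp, a cartilage matrix protein, was at 21.0 and 23.6 in them, against 3.57 and 4.34 in cells with both genes, and Sost, the secreted Wnt inhibitor sclerostin, was at 4.37 and 4.95 against 0.676 and 1.01. The 18 and 32 members with neither gene, which entered through Lamc3, were furthest from the fibroblast profile. In those, mean Pdgfra was 1.89 and 0.938, Dcn 83.3 and 35.6, and the smooth muscle gene Lmod1 5.17 and 8.22. Comp, Sost and Fmo2 were chosen after their values were seen. Because the members include such cells, several of the results that follow are also given for cells with both genes.

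**Figure D2:**
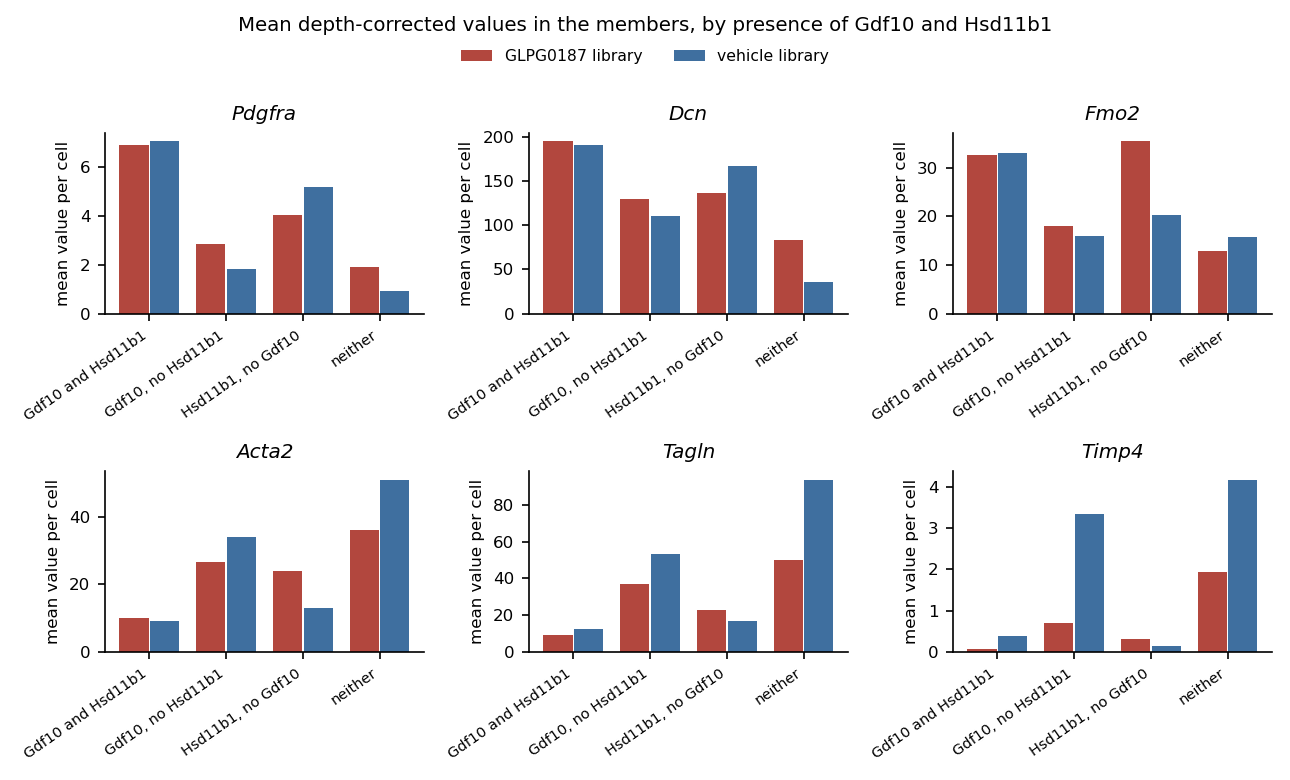
Mean depth-corrected value per cell (y axes, linear, from 0) of 6 genes in members grouped by presence of Gdf10 and Hsd11b1 (x axes), with 1 bar per library and no error bar because each group is 1 library. Pdgfra and Dcn are highest in the 380 and 365 cells with both genes, and Acta2, Tagln and Timp4 are highest in the 18 and 32 cells with neither.

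The members were a smaller share of the GLPG0187 library. They were 11.3% (10.4 to 12.3) of all cells under GLPG0187 and 18.1% (16.7 to 19.5) under vehicle. The GLPG0187 share was thus -6.75 points from the other (-8.46 to -5.07). In cells with Xist and no Y-linked transcript the shares were 12.3% (141 of 1149) and 18.2% (173 of 951). In cells with Y-linked transcript and no Xist they were 10.5% (285 of 2709) and 18.7% (312 of 1668). The share was lower in the GLPG0187 library in both. For cells with both Gdf10 and Hsd11b1 the shares were 8.64% and 12.3%, and for the remaining members 2.71% and 5.78%. Prss35/Tbx20 cells were also a smaller share under GLPG0187, at 21.9% against 27.6%, and Clec3b/Pi16 cells stood at 11.6% and 12.4%. Myh11 cells went the other way, from 24.0% of the vehicle library to 36.6% of the GLPG0187 library. Fewer members and more of other cells in a pool cannot be told apart from shares. Among cells that met any of the 3 stromal rules, the members made up 25.3% (23.4 to 27.3) and 31.2% (29.0 to 33.4).

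Genes that marked the members beyond those of the rule were sought against both other stromal populations. Of 11692 measured genes, 123 (1.05%) were at least 2-fold higher than in both, in both libraries, and 121 (1.03%) at least 2-fold lower. In members with both Gdf10 and Hsd11b1, 81 of the higher and 105 of the lower genes still were. The members had been chosen by contrast with these same cells, so this too is a description.

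The named higher genes included secreted proteins and vessel genes. Angpt2, a ligand of the endothelial receptor Tie2, had a mean of 2.07 and 2.06 in members of the GLPG0187 and vehicle libraries. In Clec3b/Pi16 cells it was 0.354 and 0.352 and in Prss35/Tbx20 cells 0.0550 and 0.0993, and the smallest of the 4 log2 ratios was 2.49. Smoc1, a secreted calcium-binding protein that antagonises BMP signals, was the most abundant of the named higher genes, at 8.85 and 8.56 against at most 2.57, and was above 0 in 93.8% and 93.1% of members. Plvap, a structural protein of endothelial fenestrae, was at 1.38 and 1.45 and Flt1, a VEGF receptor, at 0.609 and 0.672. Both are better known from endothelium, and the summed endothelial markers of the members stood at 0.100 and 0.0802. Those 5 markers include Pecam1 and Cdh5, which the rule kept low, so the low sum was partly set in advance. Whether Plvap and Flt1 values came from endothelial cells was not tested.

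Several higher genes belonged to the contractile and actin apparatus. Mylk, the kinase of the myosin light chain, was at 2.40 and 2.42 in members, at 0.601 and 0.609 in Clec3b/Pi16 cells and at 0.346 and 0.335 in Prss35/Tbx20 cells. Of 14 measured contractile genes, 6 were at least 2-fold above both populations, against 1.05% of all genes, and 3 of the 6 still were in members with both Gdf10 and Hsd11b1. In members with both Gdf10 and Hsd11b1, Mylk was still at 2.29 and 2.12, but its level in Myh11 cells was 15.7 and 14.9. Itga8, the integrin alpha-8 chain, was at 3.09 and 3.54 against at most 1.20, and at 19.5 and 17.5 in Myh11 cells. Sost, by contrast, had a smallest log2 ratio of 1.87 over all members and of only 0.77 in cells with both genes. Itga8 was chosen after its values were seen.

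Other genes lay far above Prss35/Tbx20 cells but nearer to Clec3b/Pi16 cells. Nr2f2, a nuclear receptor of veins and mesenchyme, was at 6.30 and 5.70 in members, 2.91 and 2.88 in Clec3b/Pi16 cells and 0.344 and 0.366 in Prss35/Tbx20 cells. Fmo2 was at 29.9 and 27.9, close to the 24.3 and 23.7 of Clec3b/Pi16 cells and far above the 1.77 and 1.68 of Prss35/Tbx20 cells. Of 22 basement membrane genes, the median log2 ratio over Prss35/Tbx20 cells was 1.21 under GLPG0187 and 1.06 under vehicle, but over Clec3b/Pi16 cells it was 0.16 and 0.35. The median of 12 complement genes over Prss35/Tbx20 cells was 1.77 and 1.82, and over Clec3b/Pi16 cells -0.75 and -0.45, so complement was lower in the members than in the latter.

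The lower genes included enzymes and matrix genes that the other stromal cells carried. Aldh1a3, an enzyme of retinoic acid synthesis, was at 0.0301 and 0.0131 in members and at 1.03 and 1.31 in Prss35/Tbx20 cells. Tmem100 was at 0.152 and 0.110 against at least 1.29, and Fndc1 at 0.154 and 0.177 against at least 1.51. Has2, which makes hyaluronan, and Ptx3, a pentraxin induced by inflammatory signals, were also lower. Ptx3 was at 0.110 and 0.0765 in members but at 2.91 and 2.77 in Prss35/Tbx20 cells. In Clec3b/Pi16 cells Ptx3 was at 1.60 under GLPG0187 and 0.391 under vehicle.

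Between the libraries, most genes of the members were alike. Of 9018 genes measured in the members, 216 (2.4%) were at least 1.5-fold higher in the GLPG0187 library and 216 (2.4%) at least 1.5-fold lower. The median log2 ratio of all measured genes was -0.04. Of the higher genes 202, and of the lower genes 195, had the same sign in both Xist-only and Y-only cells, and 174 and 150 were still past 1.5-fold in members with both Gdf10 and Hsd11b1. Scaling by the median of gene ratios in place of totals gave 242 higher and 168 lower genes, so that the higher genes made up 59.0% of both in place of 50%. Requiring a summed value of 300 in place of 100 left 121 higher and 41 lower genes, a higher share of 74.7%.

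**Figure D3:**
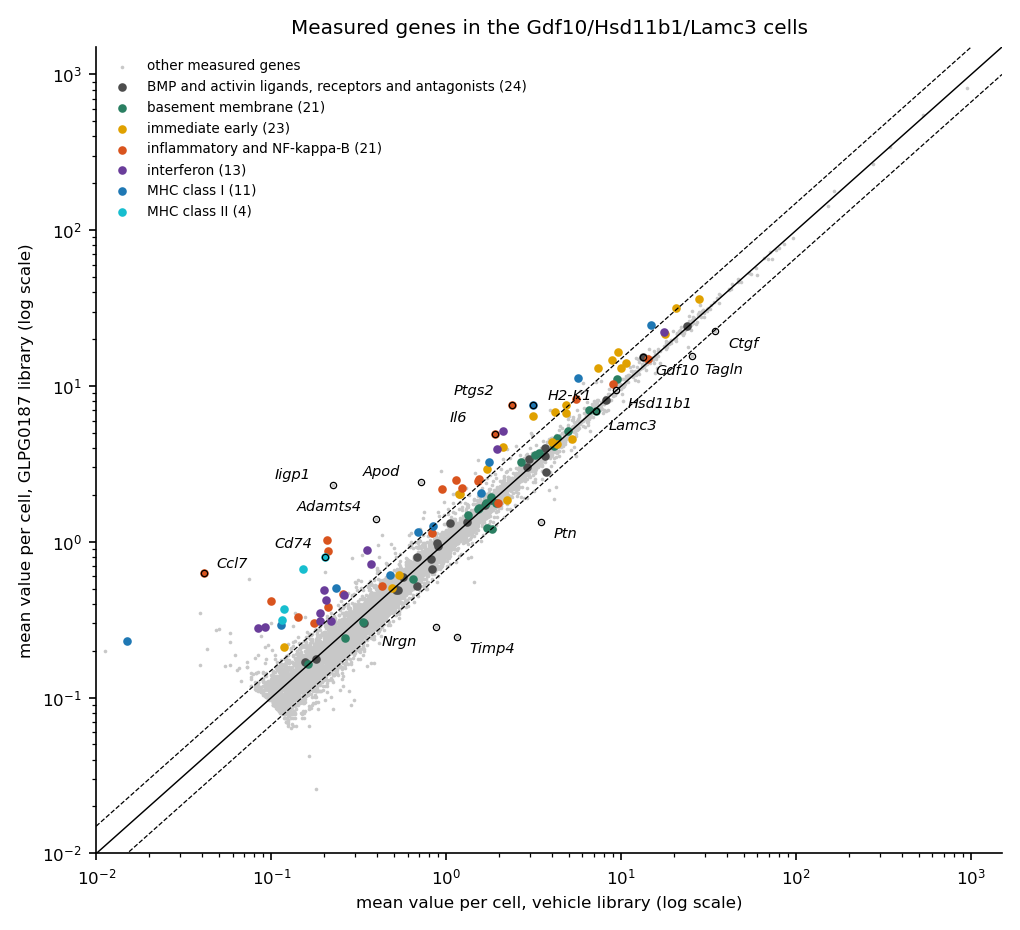
Mean depth-corrected value per cell of each measured gene in the members, vehicle library (x axis) against GLPG0187 library (y axis), both on log scales, with members of 7 gene lists in colour, the line of equality solid and the 1.5-fold lines dashed. All measured MHC and interferon genes and 20 of 21 inflammatory genes lie above the line of equality, the basement membrane and BMP genes lie along it, and Timp4 (0.246 against 1.15) lies farthest below it among the genes named.

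The 3 inflammatory genes that gave these cells part of their name were higher in the GLPG0187 library. Il6 had a mean of 4.91 per cell under GLPG0187 and 1.90 under vehicle, a log2 ratio of 1.38. It was above 0 in 33.7% (29.5 to 38) and 16.6% (13.6 to 20.03) of members. The ratio was 1.91 among Xist-only cells and 1.34 among those with Y-linked transcript. The Il6 values were concentrated in few cells, since the median member was at 0 in both libraries and the 90th percentile cell at 18 and 2.5. C1q cells, which here served as a low background, were above 0 in 9.44% and 6.79%, with a median of 3184 and 3032.5 genes per cell, and Myh11 cells in 3.42% and 1.83%.

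Ptgs2 had a mean of 7.51 under GLPG0187 and 2.38 under vehicle, a log2 ratio of 1.67, and was above 0 in 43.5% (39.1 to 48.0) and 25.7% (22.1 to 29.7) of members. Of Prss35/Tbx20 cells, 32.3% and 30.9% had Ptgs2 above 0, at means of 1.36 and 1.19, and of C1q cells 37.4% and 29.6%. In the vehicle library the share of members with Ptgs2 thus lay below that of both populations. Adamts4 had a mean of 1.40 under GLPG0187 and 0.397 under vehicle, a log2 ratio of 1.82. It was above 0 in 26.1% (22.3 to 30.1) and 14.7% (11.8 to 18.03) of members and in 0.350% and 2.47% of C1q cells. In Clec3b/Pi16 cells Il6 was above 0 in 25.4% and 13.7%, Ptgs2 in 33.5% and 25.4% and Adamts4 in 16.0% and 9.02%. These neighbours thus differed between the libraries in the same direction. Whether the differences of the 2 populations are unlike was not tested.

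These genes occurred together in the same cells. In the GLPG0187 library Ptgs2 was above 0 in 68.5% (60.8 to 75.4) of the 168 members with Il6 and in 30.8% (25.9 to 36.1) of those without. In the vehicle library it was above 0 in 61.8% (50.9 to 71.9) of the 89 members with Il6 and in 18.6% (15.1 to 22.5) of those without. Adamts4 followed Il6 in the same way, at 48.8% and 14.5% in the GLPG0187 library and 40.4% and 9.62% in the vehicle library. At least 2 of Il6, Ptgs2 and Adamts4 were above 0 in 162 members (32.5%, 28.4 to 36.8) of the GLPG0187 library and 77 (14.4%, 11.5 to 17.6) of the vehicle library, so that the shares lay 18.1 points apart (12.9 to 23.3). None of the 3 was above 0 in 41.3% and 61.9% of members. For comparison, at least 2 were above 0 in 20.5% and 10.9% of Clec3b/Pi16 cells, in 3.11% and 4.04% of Prss35/Tbx20 cells and in 4.20% and 3.09% of C1q cells.

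Cells with at least 2 of the 3 genes lay mostly among members with both Gdf10 and Hsd11b1, where their share was 38.9% under GLPG0187 and 16.99% under vehicle. Among the other members it was 11.8% (14 cells) and 8.77% (15 cells). The median number of genes above 0 was 3570.5 and 3780 in cells with at least 2 of the 3 genes and 3380 and 3533 in cells with none.

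Levels of the immediate early genes, a list of 24 genes that cells switch on within minutes of a stimulus, differed with the number of these 3 genes more than with the library. In cells with none, 1 and at least 2 of the 3 genes, the summed immediate early level was 123, 240 and 312 in the GLPG0187 library and 91.6, 217 and 309 in the vehicle library. The summed inflammatory list without Il6 and Ptgs2 was 26.7, 50.04 and 90.2 in the GLPG0187 library and 28.6, 44.2 and 80.1 in the vehicle library. The summed glucocorticoid response list was 45.0, 65.4 and 122 against 61.6, 76.4 and 133. So within a class of cells each of these summed levels lay within 1.5-fold between the libraries, and the GLPG0187 library held more cells of the class with at least 2. Sums follow the most abundant genes of a list, and single genes differed within a class. In cells with none of the 3 genes the median log2 ratio over the inflammatory genes was 0.66 and over the immediate early genes 0.32. In cells with at least 2, Tnfaip6 was at 1.98 under GLPG0187 and 0.597 under vehicle. The classes were formed after the values of these genes were known.

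Interferon and MHC class I genes had another pattern. The summed interferon level was 37.2, 30.1 and 38.7 in the 3 classes of the GLPG0187 library and 24.3, 22.2 and 24.8 in those of the vehicle library. The summed MHC class I level was 52.4, 46.7 and 57.8 against 29.5, 27.2 and 31.6. Both lists were higher in the GLPG0187 library in each class and showed no steady order across the classes.

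**Figure D4:**
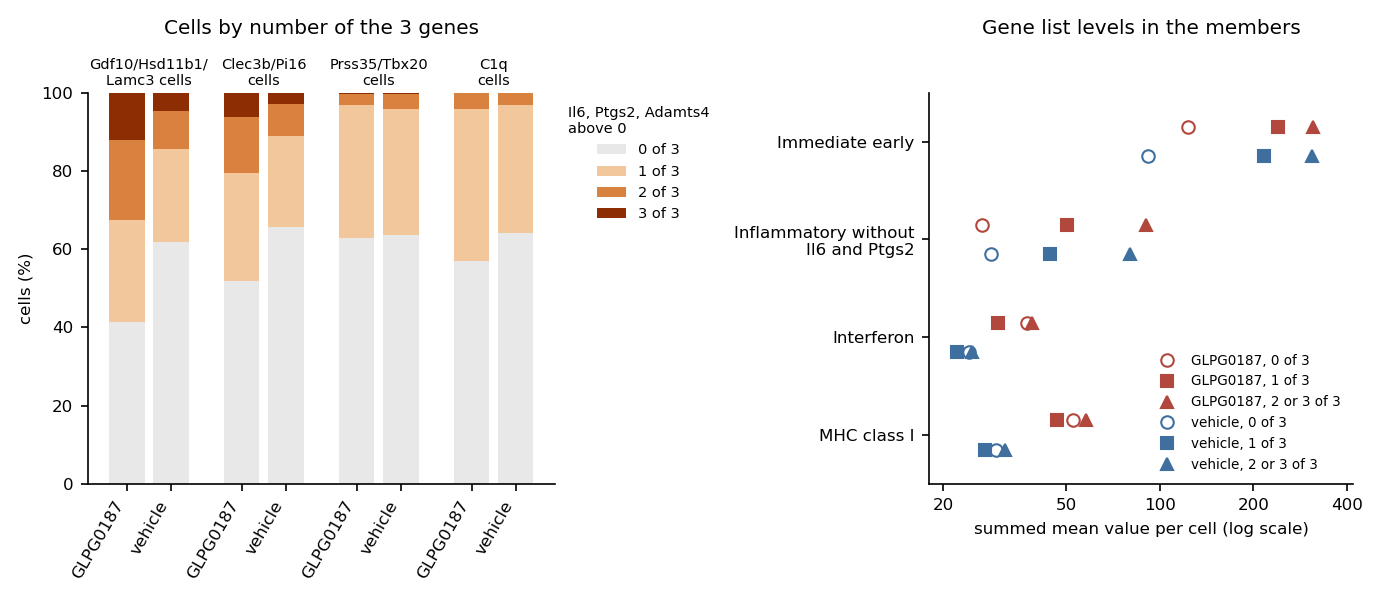
Left, percentage of cells (y axis) with 0, 1, 2 or 3 of Il6, Ptgs2 and Adamts4 above 0 in 4 populations of each library. Right, summed mean value per cell of 4 gene lists (x axis, log scale) in members with 0, 1, or 2 or 3 of the genes, 1 symbol per class and library, where immediate early genes separate by class (91.6 to 312) and MHC class I genes by library (27.2 to 31.6 against 46.7 to 57.8).

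Inflammatory genes were higher as a list. Of 21 measured genes of the inflammatory and NF-kappa-B list, 16 were at least 1.5-fold higher and 0 lower in the GLPG0187 library, with a median log2 ratio of 0.86, against 2.4% of all genes higher and a median of -0.04. The chemokine Cxcl1, which attracts neutrophils, had a mean of 2.49 under GLPG0187 and 1.13 under vehicle, a log2 ratio of 1.14. Tnfaip6, a hyaluronan-binding protein induced by cytokines, was at 0.874 and 0.211, a log2 ratio of 2.05, and 0.99 in Xist-only cells. The transcription factors of the list that stood highest differed little: Cebpd was at 14.99 and 14.19 and Cebpb at 10.3 and 8.97. The list held the label genes Il6 and Ptgs2. Its median was 0.73 in Clec3b/Pi16 cells, 0.29 in Prss35/Tbx20 cells, 0.09 in Myh11 cells and -0.16 in C1q cells.

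Of 10 measured chemokine genes, 6 were at least 1.5-fold higher and 0 lower, with a median log2 ratio of 1.54, but of 0.71 in Xist-only cells. The monocyte attractants Ccl7 and Ccl2 and the T cell attractant Cxcl10 had log2 ratios above 2. Cxcl10 was at 0.581 and 0.0746, in 6.01% and 2.80% of members, and was chosen after its values were seen. Ccl7 was at 0.635 under GLPG0187 and 0.0410 under vehicle and Ccl2 at 1.03 and 0.209, a log2 ratio of 2.30, and 2.90 in members with both Gdf10 and Hsd11b1. Ccl2 was above 0 in 12.2% and 5.41% of members, close to the 9.02% and 4.08% of Myh11 cells, and in 88.8% and 77.2% of C1q cells, whose mean Ccl2 was 57.3 and 25.8. The share of members was thus near the background, while the highest member was at 138 and 40. The macrophage markers given above moved with these 2 genes, and their part in the result was not tested. Cxcl12, the most abundant chemokine of the list, was at 13.3 and 12.3.

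Of 23 measured immediate early genes, 12 were at least 1.5-fold higher and 0 lower, with a median log2 ratio of 0.64. The AP-1 genes Fos and Junb stood highest, at 36.0 and 27.9 and at 31.6 and 20.5. Nr4a2, an inducible orphan nuclear receptor, had the largest ratio, at 6.41 and 3.11, and Klf6 the smallest, at 1.86 and 2.21. Heat shock genes did not go along: of 12 measured, 0 were past 1.5-fold in either direction and the median was -0.11. Hspa1a, the inducible heat shock protein 70, was at 2.12 and 3.19.

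The promoter sequences of 2 inflammatory and 2 interferon genes are shown because their motifs can be read against these lists. RefSeq windows of GRCm38.p6, from 250 bases before to 50 bases after each start, were searched on both strands for the NF-kappa-B motif GGANTTTCC and for the interferon response motif AAANNGAAA, where N is any base. The sequences run 5′ to 3′ along the gene's strand from 120 to 21 bases before the start, with motif letters in capitals. Il6 (chr5:30012994-30013093, plus strand) and Cxcl1 (chr5:90891125-90891224, plus strand) each have 1 NF-kappa-B motif, which begins 43 and 70 bases before the start.
Il6: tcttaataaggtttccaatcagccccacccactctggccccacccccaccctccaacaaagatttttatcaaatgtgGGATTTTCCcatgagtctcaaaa
Cxcl1: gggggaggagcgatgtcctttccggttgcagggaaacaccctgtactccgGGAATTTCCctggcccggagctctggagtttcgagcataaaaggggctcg
Isg15 (chr4:156200839-156200938, minus strand) has 3 interferon motifs that overlap one another and 1 NF-kappa-B motif. Ifit1 (chr19:34640769-34640868, plus strand) has 2 interferon motifs, both on the opposite strand, so that they read here as their complement.
Isg15: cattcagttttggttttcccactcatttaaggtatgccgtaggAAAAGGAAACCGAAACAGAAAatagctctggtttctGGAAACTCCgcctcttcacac
Ifit1: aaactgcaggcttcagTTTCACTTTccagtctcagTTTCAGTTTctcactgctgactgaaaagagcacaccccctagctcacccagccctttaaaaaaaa

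Of the 21 measured inflammatory genes, 16 had a window in the table, and 7 of these (43.8%) held the NF-kappa-B motif, namely Il6, Cxcl1, Cxcl2, Nfkbia, Tnfaip3, Icam1 and Csf1. The motif was in 1.66% of the 7115 genes measured in the members that had a window and in 1.254% of all 32851 windows. None of the 16 held the interferon motif. Of 13 measured interferon genes 11 had a window, and 7 of these (63.6%) held the interferon motif, against 9.56% of the measured genes and 10.6% of all windows. Only 2 of 10 MHC class I genes and 1 of 15 basement membrane genes held it. The lists were drawn up from genes known to answer to these factors, and a match is a description of letters, not a bound site. The genes whose sequences are shown, the other motif holders and H2-K1 were chosen after their values were seen.

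Interferon response genes were higher as a list. Of 13 measured, 11 were at least 1.5-fold higher in the GLPG0187 library and 0 lower, with a median log2 ratio of 1.02, and all 13 ratios were above 0. Ifitm3, a membrane protein that restricts viral entry, stood highest and had the smallest ratio, at 22.1 under GLPG0187 and 17.6 under vehicle. Ifi27l2a was at 5.11 and 2.10. Ifit1, which binds foreign RNA, was at 0.281 and 0.0840, and Isg15, a ubiquitin-like modifier, at 0.880 and 0.353. The list's median was 0.89 among Xist-only members and 1.09 among those with Y-linked transcript. It was 0.71 in Clec3b/Pi16, 0.32 in Prss35/Tbx20, 0.37 in Myh11 and 1.42 in C1q cells.

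Iigp1, Igtp and Ifi47, GTPases induced by interferon-gamma, had some of the largest ratios of any named gene. Iigp1 was at 2.30 under GLPG0187 and 0.226 under vehicle, a log2 ratio of 3.35. Igtp was at 0.349 and 0.0392, a log2 ratio of 3.10, and 2.38 in members with both Gdf10 and Hsd11b1, and Ifi47 at 0.277 and 0.0504. Iigp1 and Igtp were not higher in the members alone. Iigp1 was at 1.39 and 0.265 in Clec3b/Pi16 cells, 2.93 and 0.9498 in Prss35/Tbx20 cells and 2.64 and 0.1296 in C1q cells. In the same order Igtp was at 0.391 and 0.107, 0.442 and 0.147, and 0.899 and 0.241. In Myh11 cells Iigp1 was at 0.343 and 0.103 and Igtp at 0.0728 and 0.0338. Whether these differences are unlike those of the members was not tested.

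Of 11 measured MHC class I genes, 9 were at least 1.5-fold higher and 0 lower, with a median log2 ratio of 0.90, and 1.05 among Xist-only members and 0.80 among those with Y-linked transcript. B2m, the light chain shared by class I molecules, was at 24.5 under GLPG0187 and 14.8 under vehicle. The heavy chain gene H2-D1 was at 11.2 and 5.69, and H2-K1 at 7.595 and 3.125. H2-Q7 had the largest ratio, at 0.232 and 0.0149, but has near-identical copies, so its value is uncertain. Tap2, a subunit of the peptide transporter, had the smallest, at 0.611 and 0.479. The median was 0.79 in Clec3b/Pi16 cells, 0.59 in Prss35/Tbx20 cells and 0.28 in Myh11 cells. It was larger than in the members in C1q cells, at 0.94, and in Pecam1/Cdh5 cells, at 1.16.

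MHC class II genes were low in the members. All 4 measured genes were at least 1.5-fold higher in the GLPG0187 library, with a median log2 ratio of 1.82. That median moved with the cells used, to 2.51 in Xist-only cells, 1.24 in cells with Y-linked transcript, 1.47 in members with both Gdf10 and Hsd11b1 and 2.73 in members with none of Il6, Ptgs2 and Adamts4. In Clec3b/Pi16 cells the class II median had the opposite sign, at -1.02, with 3 of 4 genes lower. Single cells weigh on that sign. Among vehicle Clec3b/Pi16 cells the highest cell was at 473 for Cd74 and 131 for H2-Ab1, where the means were 1.47 and 0.440. The shares of Clec3b/Pi16 cells above 0 were higher under GLPG0187, at 25.8% against 13.1% for Cd74 and 18.6% against 6.56% for H2-Ab1. The class II median was 0.23 in Prss35/Tbx20 cells, 1.21 in Myh11 cells and 0.86 in C1q cells. Cd74, the class II chaperone, was at 0.804 under GLPG0187 and 0.201 under vehicle and above 0 in 34.3% (30.1 to 38.6) and 11.4% (8.82 to 14.4) of members. Myh11 cells had 26.6% and 11.4% above 0, and C1q cells had means of 296 and 173, so the vehicle share is at background and the GLPG0187 share not far above it. H2-Ab1, a class II beta chain, was at 0.673 and 0.151. The summed macrophage markers given above moved in the same direction, and their part in the class II values was not tested.

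Glucocorticoid genes showed no common direction. Hsd11b1 itself was within 1.5-fold between the libraries, with a log2 ratio of 0.04, and so were Nr3c1, the glucocorticoid receptor, at 2.83 and 2.92, and H6pd, which supplies the enzyme's cofactor, at 0.926 and 0.668. Of 16 measured glucocorticoid response genes, 1 was past 1.5-fold higher and 1 past 1.5-fold lower, with a median of -0.03. The direction was not the same in both sexes of cells, a difference that was not tested. In Xist-only members 4 genes were higher and 1 lower, with a median of 0.32, and in members with Y-linked transcript 1 was higher and 6 lower, with a median of -0.19. Over all measured genes, 5.19% were higher and 8.03% lower in Xist-only members, and 3.18% and 4.40% in members with Y-linked transcript. Tsc22d3, which encodes the anti-inflammatory protein GILZ, was at 1.89 under GLPG0187 and 4.10 under vehicle, but its log2 ratio was -0.27 among Xist-only cells and -1.71 among those with Y-linked transcript. Zbtb16 was at 1.21 and 0.703 and metallothionein Mt1 at 38.9 and 36.0. Among 15 clock genes, Per2 was at 0.0782 and 0.149, and the list's median was 0.04.

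Transcripts of most TGF-beta superfamily genes differed little between the libraries, and signalling itself was not measured. None of 24 measured BMP and activin genes was past 1.5-fold, with a median log2 ratio of 0.05. The ligand Gdf10 had a log2 ratio of 0.22, and the BMP-responsive genes Id3 and Id1 were at 24.2 and 23.7 and at 2.82 and 3.73. Of the 30 genes of this list measured against the other stromal cells, Bmpr1b and Fst were at least 2-fold higher in the members, beside Gdf10, which the rule used, and Bmp6 was lower. Bmpr1b, a BMP type I receptor, was at 0.168 and 0.155 against at most 0.0710. Fst, the activin antagonist follistatin, was at 3.57 and 3.68 in the GLPG0187 and vehicle libraries. Bmpr1b, Fst and Bmp6 were chosen after their values were seen.

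None of 13 measured TGF-beta ligands, binding proteins and receptors was past 1.5-fold. Tgfb1 was at 0.697 and 1.004, a log2 ratio of -0.51, and the latent TGF-beta binding protein Ltbp4 at 13.1 in both libraries. Of 13 TGF-beta target genes only Ctgf, a matricellular protein, was past 1.5-fold, at 22.5 under GLPG0187 and 34.5 under vehicle. The collagen gene Col1a1 was at 33.1 and 32.4 and Skil, a repressor of the pathway, at 2.83 and 2.22.

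The chain that GLPG0187 targets was present in the members. Itgav, the integrin alpha-v chain, was at 1.83 under GLPG0187 and 1.57 under vehicle, a log2 ratio of 0.23. Its partners Itgb1 and Itgb5 were at 11.01 and 12.04 and at 5.25 and 5.60. Of 12 measured integrin genes, 1 was past 1.5-fold, Itga3, at 0.166 and 0.371, and in members with both Gdf10 and Hsd11b1 its log2 ratio was -0.45. Of 14 alpha-v ligands, 2 were lower and 0 higher, namely Ctgf and Thbs2, and the median was -0.22. Fibronectin, Fn1, was at 5.17 and 6.66. Thbs2 and Itgav were chosen outside the rule for named genes.

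Matrix genes were close between the libraries. None of 21 measured basement membrane genes was past 1.5-fold, with a median log2 ratio of 0.09. Col4a1, a chain of type IV collagen, was at 11.1 and 9.45. Npnt, nephronectin, had the smallest ratio, at 1.21 and 1.83, which was close to equal in members with both Gdf10 and Hsd11b1, at a log2 ratio of -0.03. Fibrillin-1, the product of the mutated gene Fbn1, was at 4.82 and 4.69. None of 10 elastic fibre genes was past 1.5-fold, and Fbln5, which binds elastin, had the smallest ratio at 10.7 and 12.4. Of 15 collagen genes, 1 was past 1.5-fold, Col8a1, at 1.01 and 1.59, and Col1a2 was at 48.5 and 46.2.

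Proteoglycans and proteases showed single genes that differed. Vcan, versican, was at 0.956 under GLPG0187 and 0.608 under vehicle, while Acan, aggrecan, was at 0.166 and 0.257. Adamts1, a protease of the same substrates as Adamts4, was at 9.22 and 5.83, and was the second of 2 genes past 1.5-fold among 8 ADAMTS proteases. Its level followed the classes of cells above, at 3.27, 9.13 and 16.9 in the GLPG0187 library and 3.33, 7.09 and 14.6 in the vehicle library. Mmp3, stromelysin-1, was at 10.7 and 7.14.

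The lower genes were led by Timp4, an inhibitor of metalloproteases, at 0.246 under GLPG0187 and 1.15 under vehicle, a log2 ratio of -2.20. Timp4 stood highest in members without Hsd11b1, at 0.693 and 3.34 in those with Gdf10, but its ratio was also low in members with both genes, at -2.32. Nrgn, neurogranin, a calmodulin-binding protein, was at 0.285 and 0.868, a log2 ratio of -1.59. Ptn, the growth factor pleiotrophin, was at 1.35 and 3.49, a log2 ratio of -1.36, and Sfrp2, a secreted Wnt modulator, at 2.26 and 4.25. In members with both genes the log2 ratios were -1.84 for Ptn and -1.36 for Sfrp2. Nrgn stood at only 0.0316 under GLPG0187 and 0.173 under vehicle in those cells. Its summed value there was too low to count as measured, so its log2 ratio of -2.35 in them is uncertain. Tagln was at 15.7 and 25.4, a log2 ratio of -0.69, and -0.42 in members with both genes, and was the only one of 14 contractile genes past 1.5-fold. The smooth muscle markers, at 33.3 and 45.8 over all members, moved in the same direction, and in members with both genes they stood at 22.2 and 24.3.

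Among the remaining lists, complement had 1 of 11 genes higher, C3, the central component of the cascade, at 4.98 and 3.06. The lipid list had 1 of 12 higher, Apod, a lipid-binding apolipoprotein, at 2.41 and 0.716, with log2 ratios of 0.94 among Xist-only cells and 2.19 among those with Y-linked transcript. The GDNF family had a median of -0.56 over 5 measured genes, among them Nrtn, the ligand of Gfra2, at 0.156 and 0.248. None of 18 ribosomal protein genes was past 1.5-fold, and their median was 0.02.

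**Figure D5:**
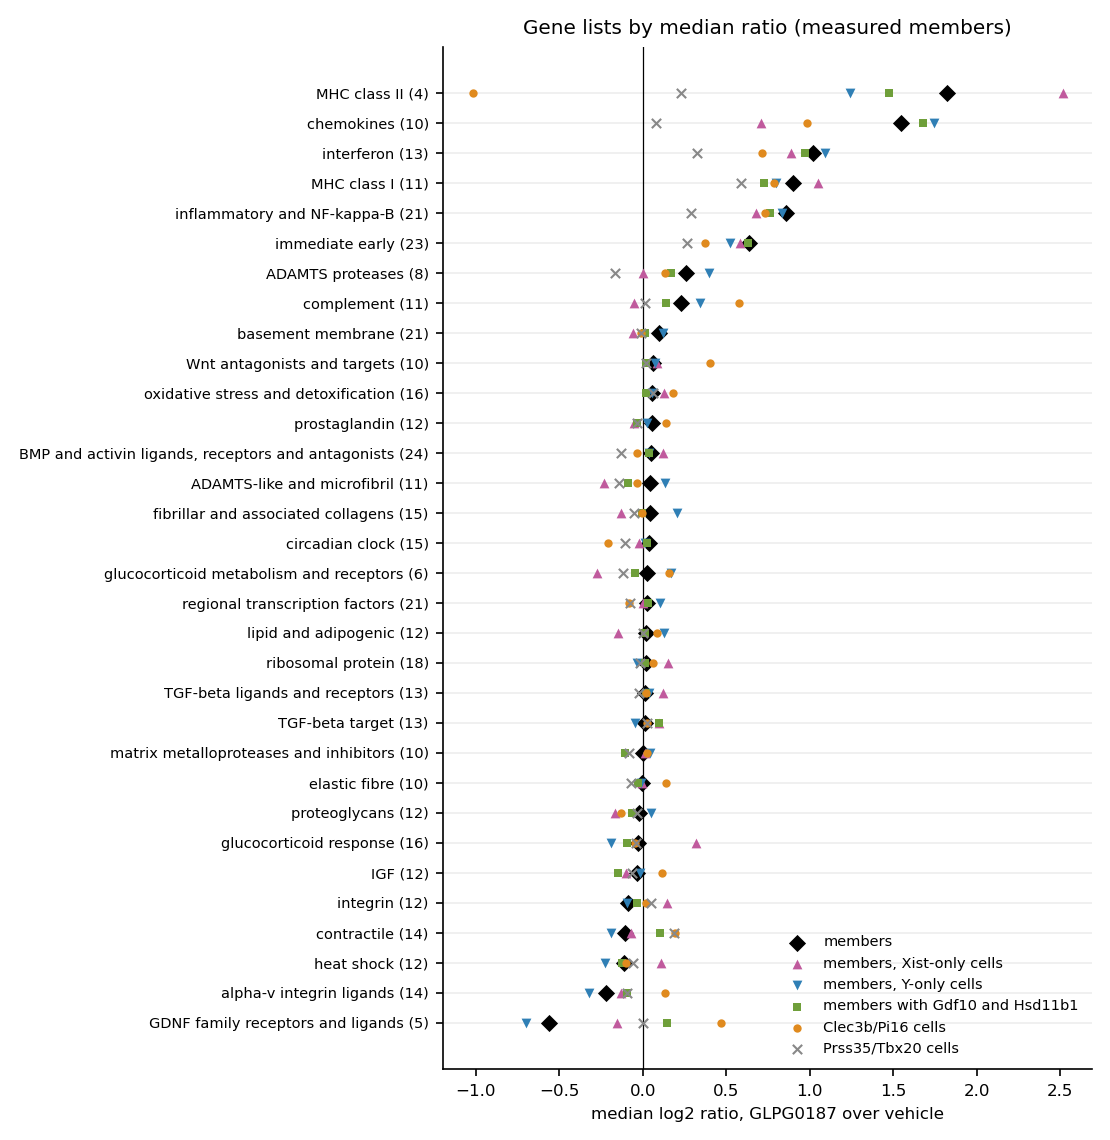
Median log2 ratio of GLPG0187 over vehicle (x axis) of the measured genes of each list (y axis, number measured in brackets) in all members, in their Xist-only and Y-only cells, in members with both Gdf10 and Hsd11b1, and in other cell populations. MHC class II (1.82), chemokine (1.54), interferon (1.02), MHC class I (0.90), inflammatory (0.86) and immediate early (0.64) genes have the highest medians in the members, and the other lists lie between -0.56 and 0.26.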

How the data were processed

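Per the labels' protocols, aortic cells were freed by enzymes, passed through a cell sorter to remove debris and captured with 10x 3′ version 3 chemistry. The deposited matrices give a whole number for each cell and gene that the authors had corrected for depth, which was handled as a score because it is no UMI count. Cell Ranger, Seurat and mm10 are named without roles or versions per the submitters' processing notes, and the method of depth correction is not given in those sources. Even totals mean that raw depth is unknown and total RNA per cell cannot be compared.

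No cell or gene filter was added. Scrublet in scanpy 1.11.5 called 48 (1.09%) and 16 (0.540%) cells as doublets, 4 and 1 of them members, which were kept except in an alternative. Values were summed over the members of a library, 1 was added, and the sum was divided by their total. A gene counted as measured when its sum over the libraries reached 100. Sequence windows came from RefSeq GRCm38.p6. The code was tested on simulated data and used Python 3.11.15, numpy 2.4.6, scipy 1.17.1, pandas 2.3.3 and matplotlib 3.10.9.

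The members and the 32 gene lists were chosen with earlier results of these data known. Genes named between libraries were the 12 highest and 12 lowest ratios among genes above 0 in 10% of the members of a library, past 1.5-fold and past 1.25-fold the same way in Xist-only and Y-only cells. Against other stromal cells they were the 15 highest and 10 lowest among genes above 0 in 25% of cells and past 2-fold. Of each list the 2 most abundant genes and both extremes could be named. Not every gene so found is described. Alternatives changed the rule's threshold to 3 or 6, the scaling, the minimum sum and the cells used.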

Additional observations from a re-analysis of the deposited data

How the results depend on the processing

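No paired analysis was possible because each group is 1 library, and no replicate could be left out. Alternatives were a rule threshold of 3 or 6, doublets left out, Xist-only or Y-only cells, median-of-ratios scaling, a summed value of at least 300, cells with none of Il6, Ptgs2 and Adamts4, and, chosen after seeing the data, cells with both Gdf10 and Hsd11b1. The direction of the share of members held in all that gave a value, and its difference shrank to -3.68 points in cells with both genes. Fewer genes are measured at a sum of 300, where the counts between libraries were 121 higher and 41 lower, and against other stromal cells 78 higher and 77 lower. In cells with none of Il6, Ptgs2 and Adamts4, 129 genes were higher, and the cause was not tested. The chemokine median was 0.71 in Xist-only cells, 0.76 at a sum of 300 and 0.43 in cells with none of the 3 genes. There the interferon, MHC class I and inflammatory medians were 1.31, 0.997 and 0.66. The GDNF family median turned to 0.10 in cells with both genes. Of list medians 244 stayed within 0.32 of the value reported, 9 moved by more, and 1 turned. Of named gene ratios 204 stayed and 28 moved. Depth correction sets the limit for low genes, since a value of 1 has no known number of molecules behind it.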
